A study of Canis lupus familiaris with 51 samples.

Results

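Interleukins are secreted proteins through which leukocytes, keratinocytes and stromal cells signal to each other, and each acts through a receptor that is usually built of several chains. Mast cells both answer to interleukins and release them: IL3 and IL33 act on mast cells, and activated mast cells are known sources of IL4, IL5, IL6 and IL13. Canine cutaneous mast cell tumor (MCT) is a frequent skin tumor of dogs made up of neoplastic mast cells with infiltrating leukocytes and stroma, and it lies beneath or reaches the epidermis.

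The interleukins and interleukin receptors were taken as all probes of the array whose gene name starts with IL followed by a number, with IL8 left out. This gave 81 probes with 49 gene names, of 43603 probes with 35619 names on the array. The names included receptors, the receptor antagonist IL1RN, the binding protein IL18BP, the enzyme IL4I1 and IL8RB, an older name of the neutrophil chemokine receptor CXCR2. No probe carried the name IL1RL1 (the receptor of IL33), IL6R, IL9, IL31, IL3RA, IL18R1 or IL17A, and these genes were not analysed here.

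The 51 tumors were spontaneous MCT biopsies, 1 dog and 1 array each, on 15 slides of a one-color Agilent canine array. Tissue came from the center of the mass at surgery, and the labels named no treatment or genotype and gave breed, sex and age: 9 Boxer, 9 Labrador Retriever and 14 Crossbred dogs, 17 dogs of 12 other breeds and 2 of no stated breed; 30 females, 19 males and 2 of no stated sex; 49 stated ages from 3 to 14 years with a median of 8. The division into differentiated and undifferentiated tumors was not carried by the sample labels and was not analysed here. Each biopsy was a piece of whole tumor, so that fewer cells of a type and less RNA per cell cannot be told apart.

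Between 59.4% and 74.8% of the spots of an array were well above background, and the correlation of log2 signals between any 2 arrays was 0.907 to 0.988 over 1275 pairs. The labelled tissue was borne out by mast cell markers: all 10 of the 16 listed genes with a probe were measured, among them the high-affinity IgE receptor chain MS4A2 (13.9 to 17.2) and the growth factor receptor KIT (9.11 to 15.0, median 13.3), both well above background on 51 of 51 arrays. Levels are given as log2 quantile-normalized signal, on which a difference of 1 is a 2-fold change; levels of different probes are not comparable. Over 7 probes far higher in males than in females, the mean level was 3.19 to 4.20 in 29 of 30 tumors labelled female and 9.25 to 11.2 in 18 of 19 labelled male. These probes were chosen by the labelled sexes in these same data, so the match of most tumors to their label is no independent check. Tumor T113, labelled female, was at 10.8 and tumor T103, labelled male, at 3.66, so that 2 libraries stood against their sex label; results on sex are given with and without them.

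Of the 81 probes, 33 (40.7%) were well above background on all 51 arrays, against 52.3% of all probes, and 3 (3.70%) on no array, against 11.3% of all probes. Counting each gene by its best detected probe, 25 genes were measured in every tumor, 13 in 26 to 50 tumors and 11 in fewer than 26. The last group held the T cell growth factor IL2 (7 of 51 arrays), IL21 (5), its receptor IL21R (5), IL12B (2), IL24 (4), the IL-2 receptor alpha chain IL2RA (13), IL1B (11), its receptor IL1R1 (21), IL17RD (9), IL20RB (19) and IL22RA1 (17). For IL24 the count depends on the probe: a probe named otherwise but described as IL24, at chr7:9001584-9001643 within the span of the IL24 probe, was well above background on 50 arrays (5.36 to 10.69) with r = -0.17 to it. IL12B is the shared subunit of IL-12 and IL-23, and IL23A, its partner in IL-23, was measured on all 51 arrays.

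Several genes had more than 1 probe, and for 2 of them the probes have to be read beside their sequences before any level. IL4, which drives type 2 responses and IgE switching, had 4 probes on chromosome 11, at positions the files give without naming the genome build. The first 2 overlap, and their shared 36 positions are in capitals below; within them they differ by 1 substitution, T28C, counted from the first capital. The third covers chr11:23983612-23986285, a span longer than the probe. The fourth lies apart at chr11:23978037-23978096, and 30 of its bases are shown, with its longest run of C and T letters in capitals.
A_11_P0000019877: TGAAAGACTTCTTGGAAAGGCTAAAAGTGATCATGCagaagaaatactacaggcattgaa
A_11_P053456: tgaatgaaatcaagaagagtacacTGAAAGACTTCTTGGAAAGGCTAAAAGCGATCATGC
A_11_P053556: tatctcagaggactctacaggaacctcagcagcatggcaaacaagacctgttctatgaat
A_11_P000001132: cttgCTCTCTCTCattctccgccaagactc

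The fourth IL4 probe was well above background on 51 of 51 arrays and nearly flat, from 15.7 to 17.0 with an SD of 0.32, the smallest SD of any interleukin measured in every tumor. The first 3 were well above background on 15, 11 and 31 arrays, spanned 1.98 to 7.46, 1.89 to 6.78 and 1.74 to 8.03, and were all highest in tumor T130. Across the 51 tumors these 3 moved together (r = 0.81 to 0.95), while their r with the fourth was -0.36, -0.33 and -0.19. The levels of the flat probe therefore did not follow those of the other 3, and IL4 is described below by the third probe; the plots and the correlations across genes, which take for each gene the probe above background on most arrays, hold the flat one. The run of 9 C and T letters is no rarity, since 12.0% of all probes hold one of this length or longer.

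IL1B, the inflammatory cytokine released after inflammasome activation, had a pair of probes that share most of their letters. The 52 letters in 5 shared blocks of at least 8 are in capitals; lower case marks where the probes differ or are out of step.
A_11_P000001223: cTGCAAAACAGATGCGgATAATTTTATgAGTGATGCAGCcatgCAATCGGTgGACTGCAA
A_11_P000001227: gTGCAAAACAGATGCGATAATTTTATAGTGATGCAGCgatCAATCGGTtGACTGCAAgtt

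The first, at chr17:40133354-40133413, was well above background on 11 arrays and reached 13.8, whereas the second, to which the files give no position, was above background on none and stayed between 1.89 and 3.35. A further IL1B probe, at chr17:40133496-40133555, was above background on 6 arrays and followed the first (r = 0.91). IL5 likewise had a second probe with no position that was above background on 0 arrays, and IL2RB a second probe on 0 arrays. Across all genes, 10 pairs of probes of the same gene were both measured in every tumor, and their r was 0.43 to 0.998 with a median of 0.985; the lowest belonged to IL33.

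Among the type 2 cytokines, IL13 and IL5 varied most. IL3, IL5, IL13 and IL4 lie within 1 stretch of chromosome 11, in the order IL3 (chr11:23337478-23337537), IL5 (chr11:23830529-23830588), IL13 (chr11:23966233-23966292) and IL4. IL13, which acts on epithelium and macrophages through IL13RA1 and IL4R, ran from 2.77 to 12.91 with a median of 9.05 and was well above background on 47 arrays. It was highest in T53 (12.91), T49 (12.54) and T9 (12.50). In LM0, T61, T77 and T47 it was not well above background. The second IL13 probe gave the same order of tumors closely (r = 0.94).

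IL5, the eosinophil growth factor, was measured on 50 arrays, from 3.50 to 12.07 with a median of 5.96. The 5 highest tumors, all above 10, were T53 (12.07), T107 (11.25), T122 (11.13), T106 (10.56) and T117 (10.17), and the next was T90 at 8.87. IL13 and IL5 rose and fell together only in part, with rho = 0.49 over the 51 tumors as a description. IL3, a mast cell and basophil growth factor, was above background on 27 arrays and peaked in T73 (11.02), T49 (9.99) and T57 (9.44), with the next tumor, T107, at 7.13; its rho with IL13 was 0.17. IL4, by the probe on 31 arrays, had a median of 4.86 and was highest in T130 (8.03).

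Receptor chains of IL-5, IL-4 and IL-13 were measured in every tumor by at least 1 probe each. IL5RA, the IL-5 receptor alpha chain, ran from 5.09 to 10.1 (median 7.72), highest in T9, T61 (9.41) and T107 (9.33). IL4R, shared by IL-4 and IL-13, ran from 6.50 to 8.66 by the probe measured in every tumor, and from 1.64 to 8.33 by a second one on 23 arrays. IL13RA2, a decoy receptor of IL-13, ran from 8.76 to 13.6 and was highest in T73, and its 3 probes agreed closely (r = 0.991 to 0.996). The probe named IL13RA1 ran from 9.36 to 13.0, but the files place it at chr24:29760833-29762362, whereas RefSeq (assembly UU_Cfam_GSD_1.0) has IL13RA1 on chromosome X; its values are given under the name in the files, with its identity uncertain. A probe named otherwise, described as a fragment of IL13RA1 and placed on chromosome X, was above background on 1 array (median 1.89) and had r = -0.10 with it.

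IL33, an alarmin of epithelial and stromal cells that activates mast cells, was measured by a pair of probes in every tumor, the first at chr11:30275164-30275223 (7.69 to 12.3, median 10.4) and the second at chr11:30273279-30273336 (8.16 to 11.5, median 9.47). Over all 51 tumors their r was 0.43. The difference between them, first minus second, ran from -1.56 to 2.21, and its widest inner gap, of 0.47, lay between 0.02 and 0.48, with 20 tumors below it and 31 above. All 9 Boxer tumors lay above the gap, beside 5 of 9 Labrador Retriever and 8 of 14 Crossbred tumors. The gap was found after the values were seen, and the source of the difference was not tested, so every IL33 level is given by probe.

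IL1A, IL1B and IL6 reached their highest levels in a few shared tumors. IL1A, a cytokine of damaged epithelium, was above background on 34 arrays, with a median of 5.54, and peaked in T57 (13.73), T114 (11.29) and T49 (9.11). IL1B was highest in the same 3 tumors, at 13.80, 13.25 and 10.32, against a median of 1.96 that lies at background. IL6, a driver of the acute phase response, was above background on 35 arrays with a median of 4.87 and reached 11.44 in T114, 11.04 in T113, 10.97 in T57 and 10.60 in T61.

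The natural inhibitors of IL-1 followed. IL1RN, which blocks the IL-1 receptor, was at 12.42 in T57 and 12.23 in T114, well apart from the next tumor, T49 at 9.76, and from the median of 7.86. IL1R2, a decoy receptor that takes up IL-1, had the largest SD (2.39) of the 25 genes measured in every tumor, above 99.9% of all 22794 probes so measured; it ran from 5.95 (T107) through a median of 10.44 to 14.82 (T114) and 16.54 (T57). IL23A was at 9.08 in T57 and 9.03 in T114, against at most 6.97 elsewhere. IL8RB was at 10.39 and 9.03 in these tumors, against at most 6.45 elsewhere.

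T57, a Crossbred female, held the highest level of 7 of the 38 genes measured in at least 26 tumors and was among the 3 highest for 12; T114, a Boxer male, was highest for 1 and among the 3 highest for 8. T49, a Crossbred male, was highest for 3 and among the 3 highest for 10, and T9, a Cocker Spaniel, for 3 and 8. How often these tumors were highest over all probes of the array was not counted, so the counts are not read as particular to interleukins. T57 and T114 stood out in neutrophil markers, with a mean centered level over 7 genes, among them S100A8, S100A9 and CSF3R, of 3.85 in T57, the highest of the 51, and 3.02 in T114, against a median of -0.32, while T49 was at -0.05 and T9 at -0.97. Their mast cell marker means were -0.97 and -2.05, the latter the lowest of the 51, and the part of these cell types in the interleukin levels was not tested.

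IL18BP, a secreted protein that neutralizes IL-18, had an upper tail of its own: T57 (17.64), T132 (15.52), T130 (15.17), T114 (15.02), T51 (13.86) and T83 (13.83), above a median of 11.87 and a lowest level of 10.57 in T47. Both of its probes gave the same picture (r = 0.998). IL18 itself ran only from 8.97 to 11.55, and its rho with IL18BP was -0.12.

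**Figure D1:**
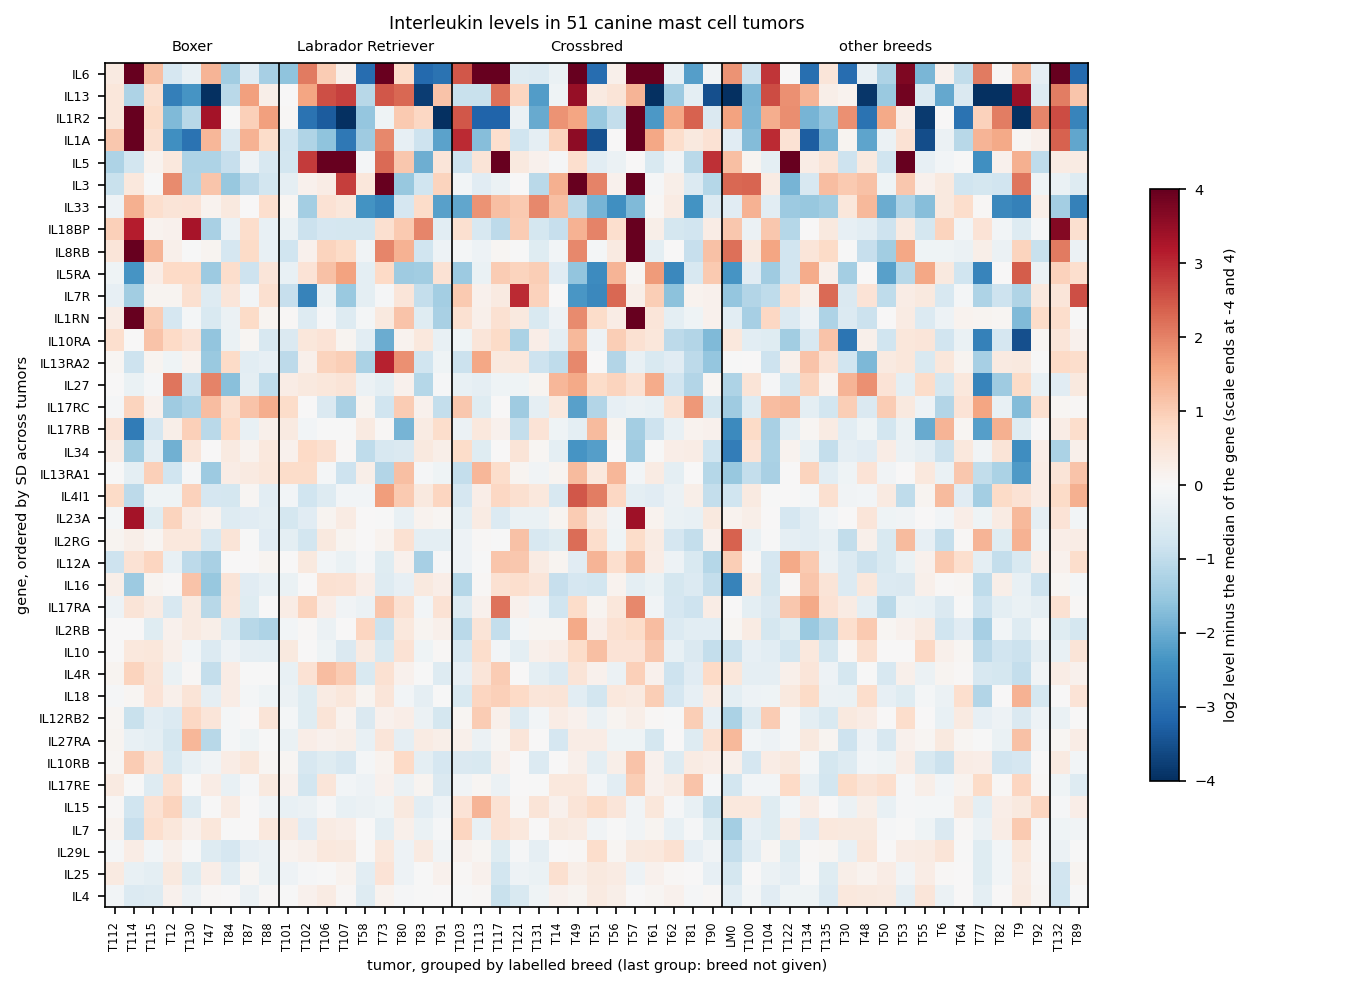
Level of each of the 38 genes measured in at least 26 tumors (rows, by SD) in the 51 tumors (columns, by labelled breed), as log2 level minus the median of the gene, with colors ending at -4 and 4. IL1A, IL1RN, IL1R2, IL6 and IL8RB are dark red in T57 and T114, and IL5 in a different set of tumors led by T53 at 12.07.

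The receptor genes of lymphocytes ranged to different extents. IL7R, needed for T cell survival, ran from 5.63 to 11.3 and was highest in T121; IL2RG, the gamma chain shared by several receptors, from 5.49 to 8.81, highest in LM0; and IL2RA was highest in LM0 (7.29) and T53 (6.99). LM0 had the lowest T cell marker mean of the 51 tumors, at -1.86. IL34, a ligand of the macrophage receptor CSF1R, ran from 6.63 in LM0 to 10.2 in T102, with a median of 9.39. IL16, a CD4 ligand, was lowest in LM0 (9.30) and highest in T130 (13.13).

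At the other end, IL4 by its flat probe, IL25 (SD 0.33), IL29L (0.35), IL7 (0.43) and IL15 (0.44) had the smallest SD among the genes measured in every tumor, while the largest after IL1R2 were IL33 by its first probe (1.36), IL18BP (1.35), IL5RA (1.27) and IL7R (1.196). The flat IL4 probe and IL25 had the highest rho of any pair of the 38 genes, 0.72 over the 51 tumors. IL25, an alarmin that acts through IL17RB, ran from 9.77 to 11.2.

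Levels were then compared between breeds, to ask whether interleukins differed with the dog's background, with limma over all 43603 probes. With the threshold at an adjusted p of 0.05, no comparison called an interleukin. Between Boxer and Labrador Retriever tumors 0 of 81 were called, against 37 of all probes (0.0849%), and 5 had an unadjusted p under 0.05 (6.17%, against 4.70% of all probes). Between Boxer and Crossbred 0 of 81 were called, against 0.0252% of all probes, and 2 were under 0.05 unadjusted (2.47% against 3.99%), or 11 with slide as a fixed term. Between Labrador Retriever and Crossbred 0 were called, against 0.0229%, and 4 were under 0.05 unadjusted (4.94% against 3.07%). The same count of 0 was obtained from the authors' normalized values, with 5, 0 and 3 under 0.05 unadjusted.

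IL5 had the smallest p of the interleukins between Boxer and Labrador Retriever. The 9 Boxer tumors lay at 4.72, 5.23 and 6.36 (lowest, median and highest) and the 9 Labrador Retriever tumors at 4.01, 7.02 and 11.25, so that the groups overlapped and the wider spread was in the latter (SD 2.42 against 0.62). The mean was 2.16 lower in Boxer (SE 0.75, 95% interval -3.68 to -0.63, limma adjusted p = 0.78). IL13 lay in the same direction, at 8.05 ± 1.97 (SD, n = 9) in Boxer and 9.92 ± 2.18 (SD, n = 9) in Labrador Retriever, with a difference of -1.88 whose interval, -3.95 to 0.19, held 0.

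IL1R2 was at 11.4 ± 1.96 (SD, n = 9) in Boxer and 8.79 ± 2.18 (SD, n = 9) in Labrador Retriever, a difference of 2.62 (SE 1.07, limma adjusted p = 0.99). IL33 differed by 1.28 by its first probe (95% interval 0.05 to 2.51) and by -0.09 by its second (-0.88 to 0.70). The difference between these probes lay above the gap described earlier in all 9 Boxer tumors and in 5 of 9 Labrador Retriever tumors, so it did not separate the breeds.

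Between Labrador Retriever and Crossbred, IL15, a survival factor of NK and memory T cells, had the smallest p, with both probes lower in Labrador Retriever by 0.48 and 0.46 (limma adjusted p above 0.99 for both); the 9 Labrador Retriever tumors spanned 7.51 to 8.31 and the 14 Crossbred tumors 7.07 to 9.31 by the first of these probes. IL7R was 1.05 lower in Labrador Retriever (95% interval -2.07 to -0.03). Between Boxer and Crossbred the smallest p was that of an IL2 probe that was above background on 0 of 9 and 2 of 14 arrays, which leaves no measured difference.

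**Figure D2:**
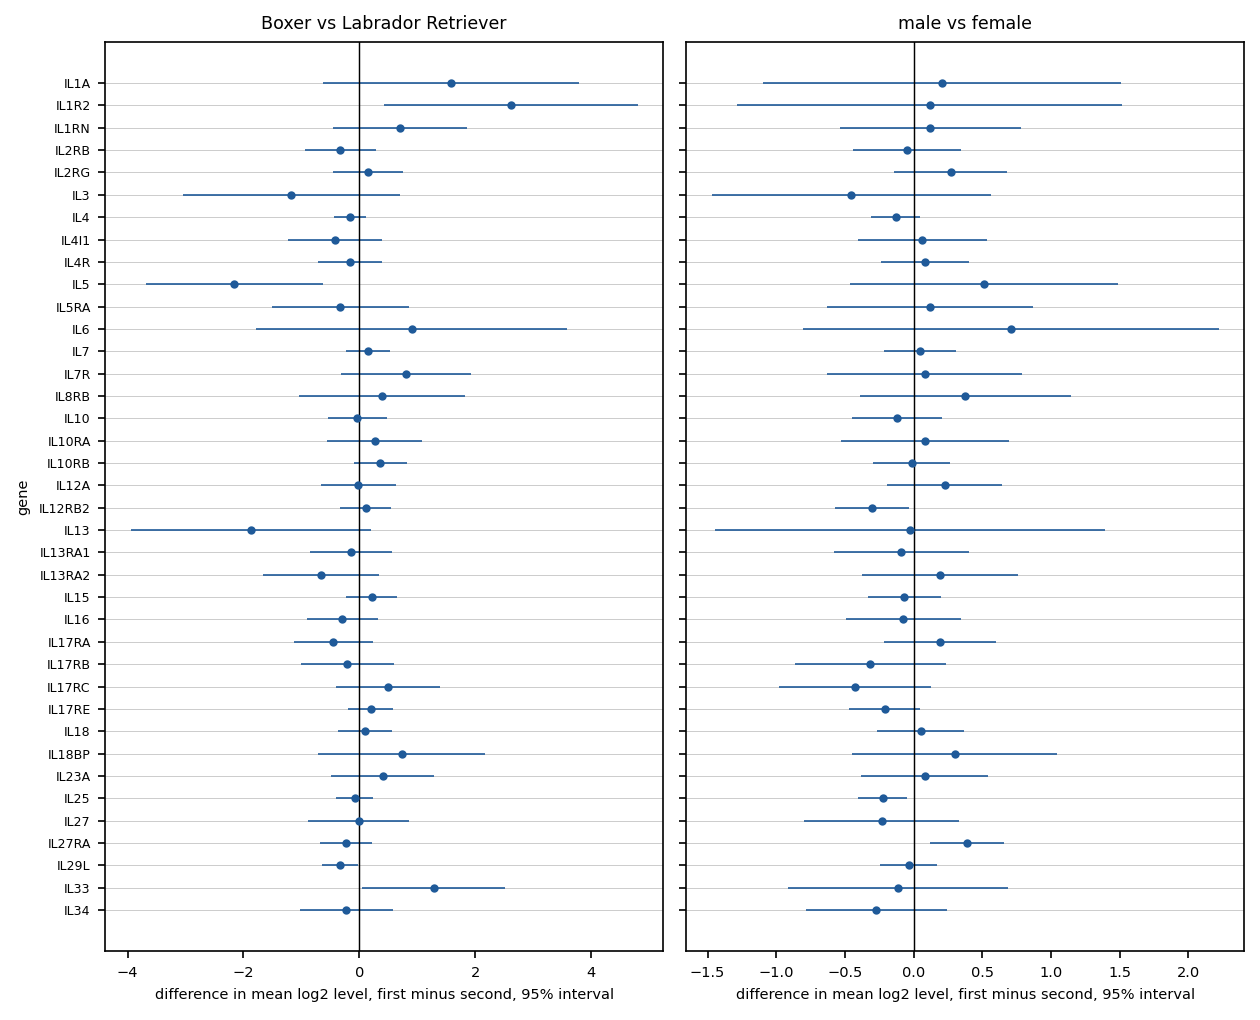
Difference in mean log2 level, first group minus second, with 95% intervals (horizontal axis) for the 38 genes measured in at least 26 tumors, between 9 Boxer and 9 Labrador Retriever tumors (left) and 19 male and 30 female tumors (right). IL5 (-2.16) and IL1R2 (2.62) lie farthest from 0 on the left, and no gene passed the adjusted threshold.

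Between 19 male and 30 female dogs 0 of 81 interleukin probes were called, against 27 of all probes (0.0619%), and 10 had an unadjusted p under 0.05 (12.3%, against 6.21% of all probes), 8 of them higher in males. Of these 10, 4 were probes of IL2 and 2 of IL2RA, above background on at most 13 of 51 arrays. IL27RA, a receptor chain of IL-27, came first, at 9.94 ± 0.54 (SD, n = 19) in males and 9.56 ± 0.40 (SD, n = 30) in females, a difference of 0.39 (SE 0.13, limma adjusted p = 0.79). IL25 was lower in males by 0.22 (95% interval -0.40 to -0.05) and IL12RB2 by 0.31 (-0.58 to -0.04). Without the 2 tumors that stood against their sex label, 6 interleukin probes were under 0.05 unadjusted, 0 were called, and the IL27RA difference was 0.39.

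With age, 0 interleukin probes and 0 of all 43603 probes (0%) were called by limma over 49 dogs. Unadjusted, 9 of 81 interleukin probes (11.1%) were under 0.05 against 2.43% of all probes, 6 with a rising slope. These were IL1A (0.30 per year, 95% interval 0.08 to 0.52), both IL6 probes (0.35 and 0.33 per year), IL1B by the 2 probes with a position (0.33 and 0.19 per year) and an IL2 probe (0.12 per year), while the 3 probes of IL13RA2 fell by 0.11 to 0.12 per year. The smallest adjusted p of these was above 0.99. Probes of 1 gene share their source, so that the 9 probes stand for 5 genes. Of 51 arrays, IL1A was well above background on 34, the IL6 probes on 35 and 19 and these IL1B probes on 11 and 6. No IL2 probe was well above background on more than 7. The remaining values of these rising probes are bounds, whereas the 3 IL13RA2 probes were measured on all 51 arrays. Without T57 and T114 the IL1A slope was 0.23 per year.

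Of 42 genes of interleukin signaling without an interleukin name, 27 had a probe and 25 were measured in at least 26 tumors, and limma called 0 in each of the 5 comparisons; at an unadjusted p under 0.05 there were 0 between Boxer and Labrador Retriever, 1 between Boxer and Crossbred (NLRP3, the inflammasome sensor, -0.69), 1 between Labrador Retriever and Crossbred (NFKBIA, the NF-kappaB inhibitor, -0.77), 1 between sexes (STAT5A, 0.22) and 0 with age. CSF2, which encodes GM-CSF, spanned 2.65 to 13.3, while the kinase JAK1 spanned 13.8 to 14.8.

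Interleukin levels were next set against 10 lists of cell type markers, to describe which interleukins went with which cells. The 38 genes and 10 lists gave 380 relations over the 51 tumors, tested by permutation, and 68 passed an adjusted p of 0.05 by both Pearson's r and Spearman's rho. The share that passes among all genes of the array was not computed, so 68 is not read as particular to interleukins. The 68 hold 3 positive and 7 negative relations to the keratinocyte list, on which the tumors fall into separate sets and which is read apart. Only IL17RC, IL1R2 and IL1A were read within those sets, and the 7 negative relations were not. Lists were not independent of each other: the mast cell list, for one, had rho = -0.51 with the neutrophil list and -0.54 with the endothelial list. It had rho = 0.53 with the B cell list and -0.46 with the keratinocyte list. The macrophage list had rho = 0.41 with the fibroblast list, and the neutrophil list 0.54 with the proliferation genes. After the mean of each slide was subtracted, 62 of the 68 were still past the threshold, and 49 without T57 and T114. Correlations are given with adjusted permutation p for r and rho, of which 0.000211 and 0.000224 are the smallest these permutations gave.

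Macrophage markers (11 genes) went with IL10, the anti-inflammatory cytokine (r = 0.73 and rho = 0.74, adjusted p = 0.000211 and 0.000224, rho 0.82 within slides), and with the probe named IL13RA1 (r = 0.76, rho = 0.77, adjusted p = 0.000211 and 0.000224, rho 0.81 within slides). Next came the IL-10 receptor chain IL10RA (r = 0.52, rho = 0.47, adjusted p = 0.00118 and 0.0059). Without the 2 tumors farthest from the median of the list, r was 0.72, 0.77 and 0.49. IL10 and IL10RA also moved together (r = 0.49, rho = 0.48, adjusted p over 13 measured ligand and receptor pairs 0.00156 and 0.00533, r = 0.51 without the 2 tumors farthest from the IL10 median).

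Neutrophil markers (7 genes) went with IL10RB (r = 0.79, rho = 0.75), IL1RN (r = 0.70, rho = 0.63) and IL1A (r = 0.71, rho = 0.62), all 3 with adjusted p = 0.000211 and 0.000224. IL10RB is a receptor chain of the IL-10 family. Without the 2 tumors farthest along the list, r fell to 0.71, 0.51 and 0.56, and all 3 were still past the threshold without T57 and T114 (rho = 0.71, 0.58 and 0.57).

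Mast cell markers (10 genes) rose with IL17RB, the receptor of IL-25 (r = 0.69, rho = 0.64, adjusted p = 0.000211 and 0.000224), and fell with IL17RC, a chain of the IL-17 receptor of epithelia (r = -0.64, rho = -0.69, adjusted p = 0.000211 and 0.000224), and IL10RB (r = -0.63, rho = -0.56, adjusted p = 0.000211 and 0.000422). Without the 2 farthest tumors r was 0.57, -0.63 and -0.57, and within slides rho was 0.62, -0.76 and -0.49. IL5RA (rho = 0.51) and IL16 (rho = 0.45) passed as well.

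T cell markers (9 genes) went with IL18 (r = 0.54, rho = 0.59, adjusted p = 0.000877 and 0.000224), IL7R (r = 0.54, rho = 0.53, adjusted p = 0.000518 and 0.00095) and IL12RB2, a chain of the IL-12 receptor (r = 0.51, rho = 0.51, adjusted p = 0.00147 and 0.00243); r without the 2 farthest tumors was 0.51, 0.44 and 0.54. IL13 also passed with this list (r = 0.46, rho = 0.45), and not with the mast cell list. B cell markers (4 genes) went with IL16 (r = 0.54, rho = 0.60, adjusted p = 0.00109 and 0.000224) and against IL17RC (r = -0.61, rho = -0.60) and IL1R2 (r = -0.41, rho = -0.53), with r = 0.52, -0.55 and -0.48 without the 2 farthest tumors. The B cell list had rho = 0.53 with the mast cell list, to which IL16 and IL17RC related with the same signs. A relation to B cell markers apart from mast cell markers was not tested.

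Of the 7 listed eosinophil markers only the chemokine receptor CCR3 and the lipoxygenase ALOX15 had a probe, so the relation is to these 2 genes and not to a cell type. With their mean went IL5RA (r = 0.79, rho = 0.78), IL18 (r = 0.63, rho = 0.63) and IL16 (r = 0.67, rho = 0.59), all with adjusted p = 0.000211 and 0.000224, and with r = 0.75, 0.61 and 0.61 without the 2 farthest tumors. IL5 and IL5RA themselves were not past the threshold as a pair (r = 0.29, rho = 0.35, adjusted p = 0.0798 and 0.0354).

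**Figure D3:**
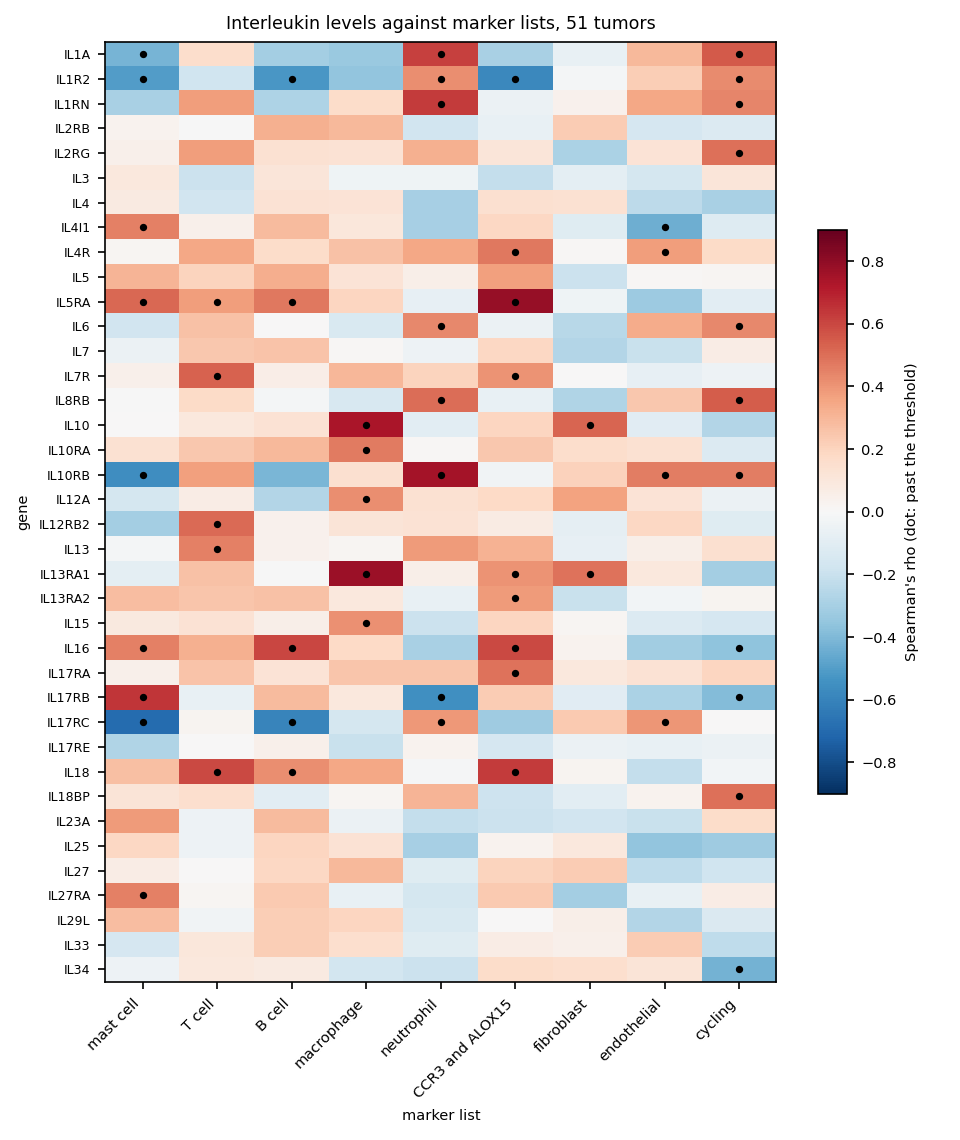
Spearman's rho over 51 tumors between the level of each of 38 genes (rows) and the mean level of each of 9 marker lists, without keratinocytes (columns), from blue (negative) to red (positive); dots mark relations past an adjusted p of 0.05 by both r and rho. The strongest reds are IL5RA with CCR3 and ALOX15 (0.78), the probe named IL13RA1, of uncertain identity, with macrophage markers (0.77) and IL10RB with neutrophil markers (0.75).

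Keratinocyte markers (7 genes) fell into separate sets of tumors on either side of the widest gap of the list, with 26 tumors at 2.21 to 6.04 and 25 at -5.83 to -0.75, and relations were read within each set. The epidermal keratin KRT1 was well above background in all 26 of the first set and in 5 of the 25. In the 26 tumors IL17RC went with the list (r = 0.71, rho = 0.72, adjusted permutation p = 0.00036 and 0.00084, r = 0.61 without the 2 farthest tumors). IL1R2 did not pass by both measures (r = 0.49, rho = 0.46, adjusted p = 0.0289 and 0.053), and neither did IL1A (r = 0.36, rho = 0.38, adjusted p = 0.13 and 0.0837). In the 25 tumors none of these 3 passed, with rho = 0.43 for IL17RC, -0.15 for IL1R2 and 0.27 for IL1A. With the sets drawn by KRT1 above background (31 tumors) or not (20), which leaves 5 tumors of low list level among the 31, IL1R2 passed in the 31 (r = 0.73, rho = 0.65, adjusted p = 0.00018 and 0.00027, r = 0.61 without the 2 farthest tumors), as did IL17RC (r = 0.48, rho = 0.74).

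**Figure D4:**
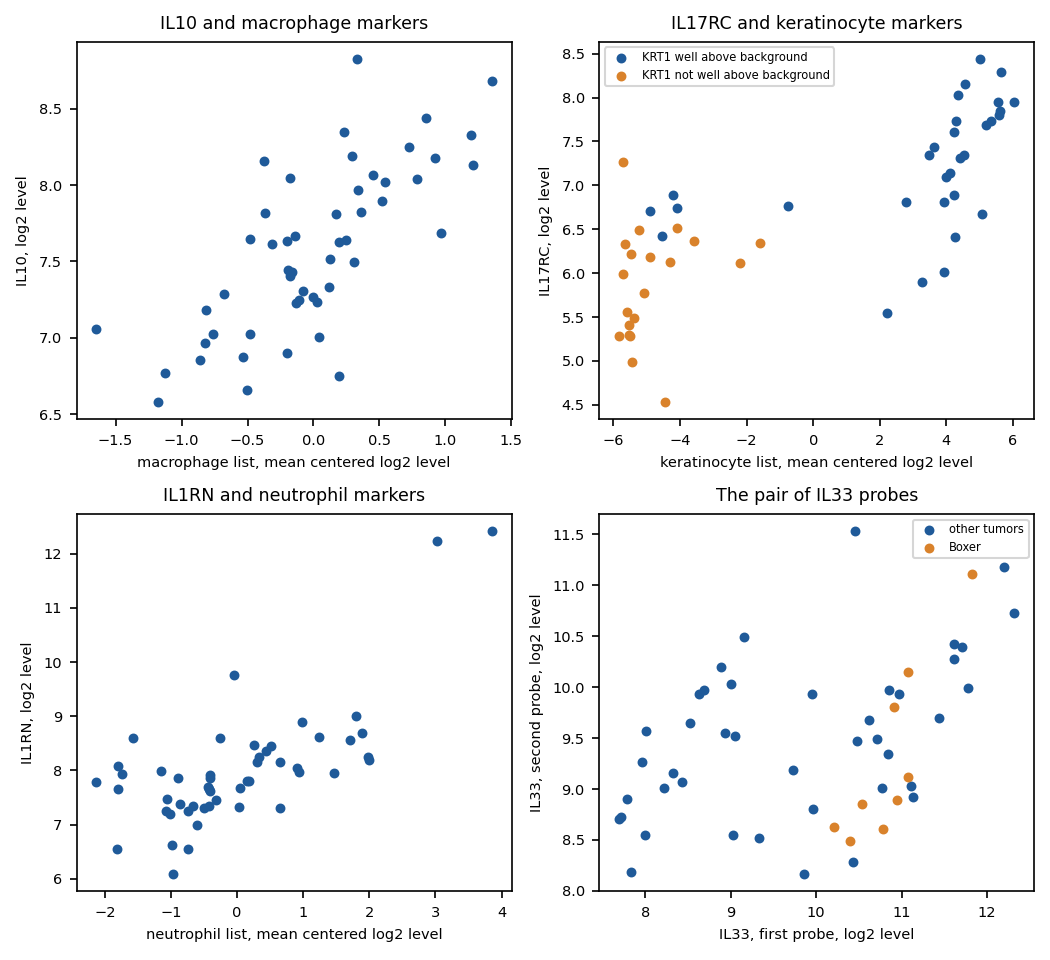
IL10 against macrophage markers, IL17RC against keratinocyte markers (colored by KRT1), IL1RN against neutrophil markers (horizontal axes, mean centered log2 level of the list) and the second IL33 probe against the first (log2 levels, Boxer tumors in orange). IL1RN in T57 and T114 stands apart at 12.42 and 12.23. All 9 Boxer tumors lie where the first IL33 probe exceeds the second by more than 0.48, beside tumors of other breeds.

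Proliferation genes (9 genes) went with IL1A (r = 0.59, rho = 0.55, adjusted p = 0.000211 and 0.00116), IL8RB (r = 0.66, rho = 0.55, adjusted p = 0.000211 and 0.00104) and IL18BP (r = 0.50, rho = 0.49, adjusted p = 0.00156 and 0.00299), with r = 0.67, 0.67 and 0.56 without the 2 farthest tumors; without T57 and T114, IL18BP was no longer past the threshold (rho = 0.44). IL34 went the other way (rho = -0.43). Fibroblast markers (10 genes) went with IL10 (r = 0.51, rho = 0.53, adjusted p = 0.00154 and 0.00222) and the probe named IL13RA1 (r = 0.52, rho = 0.49, adjusted p = 0.000877 and 0.00304), with r = 0.51 and 0.50 without the 2 farthest tumors. The next, IL12A, did not pass by r (r = 0.31, rho = 0.36, adjusted p = 0.097 and 0.0435). Endothelial markers (6 genes) went with IL10RB (rho = 0.46) and IL17RC (rho = 0.40) and against IL4I1 (rho = -0.44), the last no longer past the threshold without T57 and T114 (rho = -0.40).

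Of 35 listed pairs of a ligand with its receptor or of partner chains, 13 could be measured, and 2 passed. Beside IL10 and IL10RA this was IL34 with CSF1R (r = 0.52, rho = 0.36, adjusted p = 0.00156 and 0.0354), whose r was 0.32 without the 2 tumors farthest from the IL34 median, and which was no longer past the threshold after slide means were subtracted (rho = 0.34). IL13 with IL4R (r = 0.30, rho = 0.37), IL7 with IL7R (r = 0.29, rho = 0.33) and IL13 with the probe named IL13RA1, of uncertain identity (r = 0.28, rho = 0.29), did not pass by both measures. IL4 with IL4R did not pass either (r = -0.21, rho = -0.18). That pair rests on the flat IL4 probe, which did not follow the other IL4 probes.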

How the data were processed

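The series holds a single one-color array for each of the 51 tumors, and the scans were extracted by the authors with Agilent Feature Extraction 9.5.1.1. The paper states that RNA of some samples was also labeled and hybridized again for technical replicates, which were not analysed here. The deposited intensities used here are the background-subtracted processed signal per spot, not normalized between arrays; the authors also deposited a matrix of quantile-normalized intensities, in which spots without a valid signal are blank. Agilent's flags come from the deposited scanner output as well. Here log2 values of the processed signal were brought to a common distribution across all 51 arrays by quantile normalization. Outlier-flagged spots (2 to 35 an array) were treated as missing, control spots dropped and replicate spots averaged per probe, giving 43603 probes. At most 3 spots of an array were saturated; the number of arrays limits the precision.

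Breeds, sexes and ages were compared with limma 3.58.1 in R 4.3.3 (statmod 1.5.0), with Benjamini-Hochberg adjustment over all probes and a threshold of 0.05. The script was tested on simulated data. Nothing in the labels shows repeated samples of a dog. A gene was taken by the probe well above background on most arrays, then by the higher median, and a marker list by the mean centered log2 level of its genes measured on at least 26 arrays. Correlations used 100000 permutations (numpy, scipy), two-sided, with Benjamini-Hochberg adjustment within the family. Named were the mast cell cytokines and receptors, the smallest p of each comparison, the 5 largest and 5 smallest SDs, 3 genes per marker list and the measured pairs; the probe pairs of IL4, IL1B and IL33 and the tumors T57 and T114 were singled out after their values were seen. Members and lists were chosen with earlier results of these data known. Alternatives were the 75th percentile, normexp (offset 50), a dim probe filter (at least 9 arrays), flagged spots kept, slide as a block or term, covariates, the authors' normalized values, a stricter threshold and another detection flag. Not every marker gene of the lists is reported here by name.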

Additional observations from a re-analysis of the deposited data

Results flagged for a closer look

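Among 76 sets of 9 tumors (38 genes in Boxer and in Labrador Retriever), 12 had a highest or lowest tumor whose gap to its neighbor, as a share of the range, exceeded Dixon's 95% critical value. Chance alone gives about 1 in 20 for a single set. The sets are not independent, since the genes of a breed share the same 9 tumors and T114 recurs among the 12. The count of 12 is therefore not read as an excess over that rate. In Boxer, T114 stood apart upwards for IL1A (11.3, the others 2.60 to 6.92), IL1RN (12.2, the others 7.20 to 8.89), IL23A (9.03, the others 5.17 to 6.59), IL6 (11.4, the others 3.50 to 6.23) and IL8RB (9.03, the others 3.61 to 5.61), and downwards for IL7 (5.48, the others 6.38 to 7.09). T130 stood apart for IL27RA (11.0, the others 8.60 to 9.82).

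In Labrador Retriever, T80 stood apart for IL15 (9.26, the others 8.45 to 8.82) and, downwards, for IL17RB (7.65, the others 9.40 to 10.2). T58 was low for IL4 by its flat probe (16.04, the others 16.49 to 16.88). T73 for IL10RA (3.57, the others 4.98 to 6.09) and T83 for IL12A (4.23, the others 5.09 to 5.95) were not well above background, so that their levels are bounds and the gaps have no exact size.

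Of probes described as interleukins or their receptors but named otherwise, a pair gave signal in every tumor. The probe described as IL27RA had a median of 7.13 and followed the IL27RA probe (r = 0.85 over 51 tumors), and that described as IL10RB had a median of 13.5 and followed IL10RB (r = 0.94). The probes described as IL13RA1 (r = -0.10) and IL24 (r = -0.17) did not follow the probes of those names.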

How the results depend on the processing

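No interleukin probe was called in any of the 5 comparisons under any alternative. With slide as a fixed term the probes called over the whole array numbered 0 between Boxer and Labrador Retriever, 0 between Boxer and Crossbred and 4 between Labrador Retriever and Crossbred, in place of 37, 11 and 10. With the adjusted p tightened to 0.01 and a 2-fold minimum they numbered 24, 5 and 5, and 11 between sexes in place of 27. Without T57 and T114, chosen after seeing the data, 5 were called between Boxer and Crossbred. With Agilent's flag for a positive and significant signal, 0 interleukin probes lacked signal on all arrays, in place of 3. The ligand and receptor pairs past the threshold were 1 with the authors' table, 1 with slide means subtracted and 1 without T57 and T114, in place of 2. The 45 values of single genes recomputed under alternatives kept their direction. By over 1.5 times, normexp moved the IL5 difference between Boxer and Labrador Retriever to -1.28 from -2.16, the IL1A slope with age to 0.14 per year from 0.30 and the IL2 difference between Boxer and Crossbred to -0.10 from -0.67, which slide as a fixed term moved to -1.29. Unadjusted, 11 interleukin probes were under 0.05 between Boxer and Crossbred with slide as a fixed term, in place of 2. The split of tumors by the widest gap of the keratinocyte list was chosen after seeing the data. Under normexp the SD of 20 of the 38 genes moved by over 1.5 times, among them IL13 (1.63 in place of 2.49) and IL6 (1.32 in place of 2.66). The cause was not tested. Levels below background are bounds and have no certain order. Correlations took them at their values all the same, among them those of IL1A (well above background on 34 arrays), IL3 (27) and IL8RB (41). No paired analysis was possible because the replicate numbers only name tumors of different dogs.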
